A study of Homo sapiens with 8 samples.

Results

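The 3 control libraries of a study of MOV10 were described, of 8 libraries in the series, to show what HEK293F cells transcribe when MOV10 is left at its own level. HEK293F is a human embryonic kidney line kept as an established cell line, and MOV10 is an RNA helicase that works with FMRP and Argonaute proteins. The control cells grew in DMEM with serum and received an irrelevant siRNA, given 3 times with 24 h between treatments, so they are siRNA-treated cells and not untouched ones. RNA was isolated with Trizol and stranded TruSeq libraries were made from total RNA. Libraries were selected by their titles alone, and no level was compared with the MOV10 knockdown or overexpression libraries. Nothing in the labels states whether controls 1, 2 and 3 are separate cultures, and the SD values below may therefore be technical.

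Cells of the HEK293 family come from fetal kidney transformed with adenovirus DNA. They are known to divide fast, to make large amounts of protein, and to carry transcripts of neuronal and early kidney character beside a lack of most products of mature kidney tubules. Any proliferating cell keeps a shared set of transcripts for ribosomes, protein folding, energy supply and replication, while lineage genes are switched on only in particular tissues. The level of a transcript is given as CPM, a gene's share of all counted reads of the library scaled to a common total. Longer transcripts give more reads, so levels of different genes were also compared as CPM per kilobase of the longest annotated transcript.

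MOV10, the gene that the study perturbs, stood at 76.4 CPM in control 1, 76.2 CPM in control 2 and 91.3 CPM in control 3, with a mean of 81.3 ± 8.67 CPM (SD, n = 3). Control 3 was the high library, and controls 1 and 2 were nearly equal. In the list of 20 microRNA silencing genes and FMRP partners, 19 were expressed (95%), which here means at least 1 CPM in all 3 libraries. The share was 58.7% over all symbols of the table and 67.6% over protein-coding genes. The median of the list was 117 CPM. DICER1, which cuts microRNA precursors, had 244 ± 11 CPM, the FMRP partner CYFIP2 243 ± 10.1 CPM and the exporter XPO5 242 ± 3.90 CPM, an order that the spread does not resolve. EIF2C2, the gene for Argonaute 2, gave 51.5 CPM, and MOV10L1, the germline relative of MOV10, 0.037 CPM.

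Counts summed to 22.7 M in control 1, 19.4 M in control 2 and 15 M in control 3, or 57.0 M together. Of the 23368 gene symbols in the table, 13726 were expressed (58.7%) and 6089 were silent (26.1%), meaning under 0.1 CPM in every library. Between those limits lay 3553 symbols. The table also holds noncoding symbols, and of its protein-coding genes 67.6% were expressed. No read was counted in any of the 3 libraries for 4601 symbols (19.7%), which allows a level of up to 0.0526 CPM (3 counts over the 3 libraries). In a single library the same floor of 3 counts lies at 0.132, 0.155 and 0.200 CPM for controls 1, 2 and 3. These floors cover counting error only. Each library alone held 13960, 13960 and 14039 symbols at 1 CPM or more.

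Most counts came from the middle of the range and not from its top. The 2757 symbols between 100 and 1000 CPM held 57.7% of the counts, and the 7899 symbols between 10 and 100 CPM held 34.5%. Only 41 symbols reached 1000 CPM, and they held 6.28%. The 10 most abundant symbols took 2.42%, the 100 most abundant 11% and the 1000 most abundant 39.3% of all counts. It took 1631 symbols to reach 50 percent of the counts, and 1624, 1629 and 1637 in the single libraries. At the low end, the 2564 symbols between 0.1 and 1 CPM added 0.102%.

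**Figure D1:**
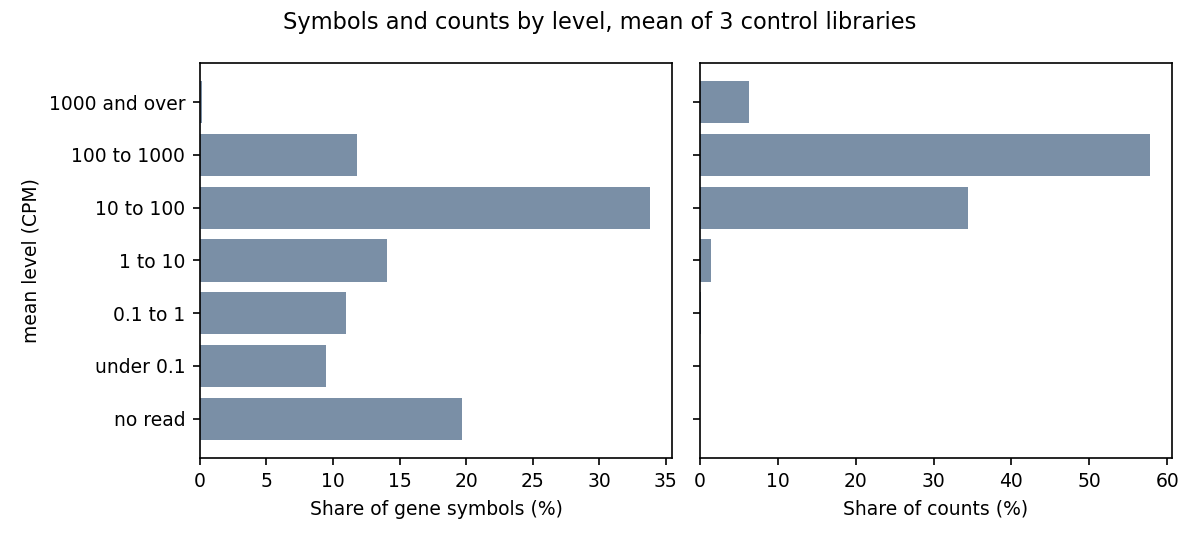
Share of gene symbols (left, %) and share of counts (right, %) in each band of mean CPM over the 3 control libraries, with bars starting at 0. The band from 100 to 1000 CPM holds 11.8% of symbols and 57.7% of counts, while symbols with no read make up 19.7% of the table.

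EEF2, the factor that moves the ribosome along the mRNA, was the most abundant symbol, with 3617, 3660.1 and 3678 CPM in controls 1, 2 and 3 (3652 ± 31.2, SD, n = 3). No other symbol overlapped it. The cytoplasmic actin gene ACTG1 followed with 2742, 2695 and 2710.2 CPM, and the beta tubulin gene TUBB with 2641, 2616 and 2667 CPM. HNRNPA2B1, which binds nascent mRNA and takes part in splicing, gave 2563, 2548 and 2502 CPM. The other cytoplasmic actin gene, ACTB, gave 2503, 2438 and 2422 CPM. The ranges of HNRNPA2B1 and ACTB overlapped across libraries, but within each library HNRNPA2B1 was the higher. PLS3, which encodes an actin-bundling protein, stood at 2392, 2426 and 2342 CPM. Its range overlapped that of ACTB, which was the higher within each library.

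Below these, the glycolytic enzyme ENO1 had 2110.5, 2027 and 2193 CPM, and the chaperone HSP90AA1 had 2106, 2100.4 and 2015 CPM. GAPDH, a glycolytic gene often used as a reference, gave 1841, 1878 and 1895 CPM and did not overlap either neighbour. RPS4X (1673 ± 22.3 CPM) was the first ribosomal protein gene, ahead of the nucleolar protein NCL (1581 ± 15.7 CPM) and the ribosomal scaffold GNB2L1 (1524 ± 31.5 CPM). EIF4G2, an initiation factor, had 1492 ± 10.7 CPM, and AMOT, a junction protein of the Hippo pathway, 1469 ± 15.2 CPM. In the order of the 40 most abundant symbols, the ranges of 28 of 39 neighbouring pairs overlapped across libraries. Whether the order within each library was the same was not counted for these pairs.

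**Figure D2:**
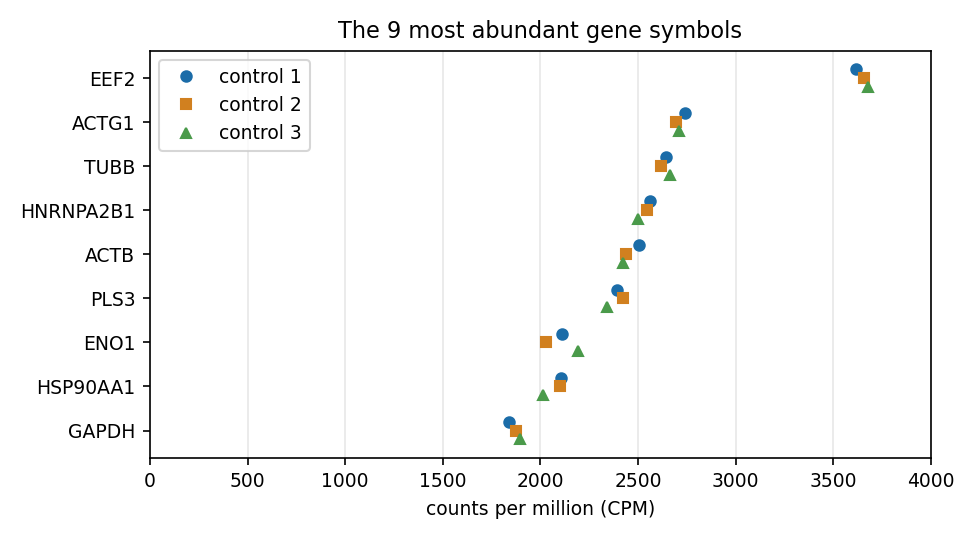
Level in CPM (horizontal axis, from 0) of the 9 most abundant gene symbols in each control library, 1 point per library. EEF2 stands alone at 3617 CPM or more, and the points of HNRNPA2B1, ACTB and PLS3 meet or overlap along the order.

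Among those 40 symbols, 39 were protein coding and 1 was a long noncoding RNA, XIST. Lists of core functions, which had been assembled with earlier results of these data known, contained 19 of the 40. Glycolysis had 5 of them (ENO1, GAPDH, LDHB, PKM2 and LDHA), and translation factors and cytosolic chaperones had 4 each. The chaperones were HSP90AA1, HSP90AB1 and the pair HSPA1A and HSPA1B, whose nearly identical sequences leave the division of reads between them uncertain. HSPA1A had 1207, 1112 and 1104 CPM and HSPA1B 1193, 1084 and 1061 CPM, with control 1 the high library for both. Outside the core lists came regulators of transcription and chromatin such as BRD2 (1284 ± 7.89 CPM), SPEN (1072 ± 42.1 CPM) and the cohesin subunit SMC1A (1131 ± 12.2 CPM). DDX17, DDX3X and DDX5, RNA helicases as MOV10 is, stood at 1292, 1253 and 1045 CPM. Of the 40 symbols, 38 were among the 40 most abundant in all 3 libraries.

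Dividing by length changed the order. ACTB then led with 1278 CPM per kilobase, ahead of ACTG1 with 1204, EEF2 with 1154 and RPS4X with 1096 CPM per kilobase. Ribosomal protein genes have short transcripts, and they moved up by this measure. Beside RPS4X, the 20 highest symbols then included GNB2L1 (1086 CPM per kilobase), RPL8 (973), RPL11 and RPS2, and also the ubiquitin gene UBB and the prothymosin gene PTMA. Of those, RPL11 gave 678 CPM before the division. The median expressed symbol had 37.5 CPM, or 11.3 CPM per kilobase.

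The most abundant symbol, EEF2, is a translation gene, and the sequence around annotated transcription starts is shown for it, for other translation genes and for abundant genes of other functions. Vertebrate mRNAs of ribosomal proteins and elongation factors are known for a terminal run of pyrimidines, the TOP motif, which begins with C at the first base and ties their translation to growth signals. Each window holds the 15 bases before the start and the first 15 bases of the transcript, from RefSeq on GRCh38.p14, a later build than the hg19 used for counting. Capitals mark a run that opens with C at the start and goes on with at least 4 bases that are C or T. The symbols EEF1A1, RPS4X, RPL4, RPS6 and RPL11 were picked for display after their levels and sequences had been seen.
EEF2 (chr19:3985449-3985478, minus strand): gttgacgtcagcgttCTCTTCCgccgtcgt
EEF1A1 (chr6:73521018-73521047, minus strand): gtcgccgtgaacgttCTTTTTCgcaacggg
RPS6 (chr9:19380222-19380251, minus strand): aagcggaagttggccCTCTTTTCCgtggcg
RPL11, second start (chr1:23691791-23691820, plus strand): cggaagctccgctttCTCTTCCTgctctcc
RPL11, first start (chr1:23691764-23691793, plus strand): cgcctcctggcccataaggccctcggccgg
RPL4 (chr15:66504841-66504870, minus strand): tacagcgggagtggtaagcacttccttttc
RPS4X (chrX:72277234-72277263, minus strand): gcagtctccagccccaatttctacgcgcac
ACTG1 (chr17:81512785-81512814, minus strand): gaggccgcggtcggtctcagtcgccgctgc
HNRNPA2B1 (chr7:26200732-26200761, minus strand): agcggctctagcggcagtagcagcagcgcc
GAPDH (chr12:6535249-6535278, plus strand): agcgggtgcatccctgtccggatgctgcgc

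EEF2, EEF1A1 and RPS6 carried such a run exactly at the annotated start. So did the beta tubulin gene TUBB, an abundant gene outside translation, at 1 of its annotated starts, though its windows are not displayed. RPL11 carried it at only 1 of its annotated starts, and the windows of RPL4 and RPS4X hold no run placed at the start base, which says only that these letters are not at that position in these windows. Over all 35116 annotated starts, of which 21962 belong to a symbol of the count table, 4.07% had the run. Among the 87 starts of 69 cytosolic ribosomal protein genes, 49 had it (56.3%). Translation factors had it at 22.7% of 44 starts, nuclear oxidative phosphorylation genes at 13.7% of 51 and replication genes at 10.3% of 39. Glycolytic genes had it at 4.76% of 42 and zinc finger genes named ZNF at 3.58% of 559. The share was 1.62% of 308 for olfactory receptor genes and 1.49% of 67 for replication-dependent histone genes. By level, the share was 9.52% of the 63 starts of symbols at 1000 CPM and over, 7.26% from 100 to 1000 CPM, 4.68% from 10 to 100 CPM and 2.80% among silent symbols. Starts of a gene are not independent, and 15602 of the 23368 symbols had at least 1 start in the RefSeq table.

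A pair of other features of these starts also differed along the range of levels. The word TATAAA on the gene's own strand, between 45 and 21 bases before the start, was found at 2.33% of all starts and at 8.36% of the starts of silent symbols. It was rarest, at 1.06%, for symbols between 10 and 100 CPM, and it was found at 6.35% (4 of 63) of the starts at 1000 CPM and over. Histone genes held it at 53.7% of 67 starts. The CG dinucleotide, counted over the 250 bases before and 50 bases after the start, had a median of 14 per start over all starts, 25 to 27 in the bands above 10 CPM and 4 for silent symbols. The values over all starts include genes outside the count table, and those by level do not. A match is a count of letters, and no factor's binding was measured.

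Ribosomal proteins held the largest share of counts among the core lists. The 88 cytosolic ribosomal protein symbols held 2.38% of all counts, and 83 of them were expressed. That is 94.3%, beside 58.7% of all symbols and 67.6% of protein-coding genes. The median of the list was 223 CPM or 146 CPM per kilobase. RPL8 had 1013 ± 26.6 CPM, RPL4 971 ± 22.8 CPM and RPL15 808 ± 14 CPM. RPS27 (4.56 ± 0.59 CPM) and RPS10 (4.61 CPM), which are parts of every small subunit, stood far below their partners, and RPL21 gave 0.922 ± 0.183 CPM. The testis gene RPL10L had no read. Such gaps inside a complex whose subunits are made together are listed values of this table, and whether reads of near-identical copies were dropped in counting was not tested. Of 39 translation factors 37 were expressed, with a median of 326 CPM, from EEF2 down to the cap-binding protein EIF4E at 44.9 ± 1.92 CPM. EIF4A1 and EIF3C had no read.

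All 20 cytosolic aminoacyl-tRNA synthetases, which charge tRNAs, were expressed, from IARS at 627 ± 6.79 CPM to CARS at 69.2 CPM. Counts of expressed members in this paragraph stand beside 58.7% of all symbols and 67.6% of protein-coding genes. Folding was as well covered. Of 30 cytosolic chaperone and chaperonin symbols 28 were expressed, with a median of 391 CPM, and the chaperonin subunit CCT3 had 852 ± 6.67 CPM. HSPA6, which is made after strong heat stress, gave 0.281 ± 0.109 CPM, and the small heat shock gene CRYAB 0.211 ± 0.127 CPM. In the endoplasmic reticulum list all 20 members were expressed with a median of 126 CPM. Calnexin (CANX, 1067 ± 12.3 CPM) was the highest, HSPA5 had 531 ± 9.45 CPM, and DDIT3, a gene of the unfolded protein response, 29.4 CPM. The 31 proteasome subunits, which degrade tagged proteins, were all expressed with a median of 153 CPM, and PSMC1 stood apart at 4.72 ± 0.40 CPM. Splicing factors had the highest median of the core lists in CPM, 522 CPM for 33 of 33 expressed members, but per kilobase their median of 127 lay below those of ribosomal proteins (146) and cytosolic chaperones (131). Among them were HNRNPU at 1415 ± 21.9 CPM and SRSF1 at 878 ± 25.3 CPM.

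Energy metabolism showed both glycolytic and respiratory transcripts. All 20 glycolytic symbols were expressed, beside 58.7% of all symbols and 67.6% of protein-coding genes. The glycolytic median was 192 CPM or 57.4 CPM per kilobase. LDHB (1292 ± 11.2 CPM) and LDHA (1049.8 ± 36.2 CPM), the subunits of lactate dehydrogenase, were both among the 40 most abundant symbols. The lowest glycolytic values were those of PFKL (63.7 CPM) and ALDOC (32.8 ± 2.53 CPM). All 54 nuclear genes of oxidative phosphorylation were expressed, with a median of 104 CPM or 71.2 CPM per kilobase. ATP5B, a catalytic subunit of ATP synthase, had 882 ± 8.69 CPM, and ATP5E, a small subunit of that enzyme, 4.26 ± 1.35 CPM. A search for symbols of mitochondrially encoded genes found none among the counted symbols, so transcripts of the mitochondrial genome are not described here. Of the 25 genes of cholesterol synthesis and sterol regulation all were expressed, with a median of 96.2 CPM, and the fatty acid synthase FASN (579 ± 11.5 CPM) and HMGCS1 (429 ± 9.60 CPM) were the highest.

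Transcripts of the cell cycle were present throughout. Each of 36 replication genes was expressed with a median of 144 CPM, led by the helicase subunits MCM3 (607 ± 13.6 CPM), MCM2 (546 ± 8.06 CPM) and MCM7 (529 ± 18 CPM). Each of 30 mitosis genes was expressed with a median of 170 CPM. Over all symbols 58.7% were expressed, and over protein-coding genes 67.6%. TOP2A had 887, 937 and 924 CPM, the proliferation marker MKI67 had 455, 488 and 478 CPM, and FOXM1 had 399 ± 6.28 CPM. Against the replication and mitosis genes, only 17 of 73 replication-dependent histone symbols were expressed (23.3%), with a median of 0.294 CPM, and 15 had no read. HIST1H2BK (84.5 ± 2.70 CPM) and the linker histone HIST1H1C (46.1 ± 0.34 CPM) were the highest. Most histone mRNAs are known to end in a stem-loop without a poly(A) tail, and whether RNA was selected for poly(A) is not given in the sources used here.

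A list of tumour suppressors and regulators of entry into the cell cycle was transcribed in 28 of 29 members, with a median of 82.1 CPM. The share was 96.6%, beside 58.7% of all symbols and 67.6% of protein-coding genes. The ubiquitin ligase gene MDM2 had 388, 425 and 400.2 CPM, with control 2 high, and the tumour suppressor RB1 had 87.4 ± 4.39 CPM. CDK4 gave 209 CPM in each library, with an SD of 0.33 CPM. The inhibitor genes CDKN1A (85.7 ± 2.46 CPM) and CDKN2A (76.0 ± 2.16 CPM) were both expressed. TP63, a regulator of stratified epithelia, was the only member under 1 CPM, at 0.430 CPM.

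Many proteins of core metabolism and the cytoskeleton are encoded by a widely used gene and by relatives that are known for use in muscle, brain, testis or other tissues. In 26 such families, 43 of 44 wide members were expressed, and 31 of 53 tissue-restricted members. The latter share was near the 58.7% of all symbols and below the 67.6% of protein-coding genes. The exception among the wide members was the ADP/ATP carrier gene SLC25A6, listed with no read, a value that is doubtful because related copies exist and that enters the share of its family. In 19 of the 24 families with restricted members, those members made up less than 10% of the family's level per kilobase. Muscle actins amounted to 0.328 ± 0.037% of all actin, with ACTA2 at 7.86 CPM and ACTA1 at 3.18 CPM. The liver and red cell pyruvate kinase PKLR gave 0.0147 CPM beside 1146 CPM of PKM2, and the testis form GAPDHS 0.0172 CPM beside GAPDH. The glucose transporter SLC2A2, a liver form, and the muscle forms COX6A2 and COX7A1 had no read.

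Some restricted forms reached more than traces. EEF1A2, the elongation factor form of neurons and muscle, had 116, 126 and 135 CPM. Per kilobase it made up 17.7 ± 1.14% of the pair with EEF1A1. That share rests on lengths of 4441 bases for EEF1A1 and 2014 for EEF1A2. Before the division, the means were 1293 CPM for EEF1A1 and 126 CPM for EEF1A2, a smaller share. ENO2, the neuronal enolase, had 139, 141 and 161 CPM, and the restricted enolases reached 5.89 ± 0.30% of their family. Brain tubulins were expressed as well, with TUBB2B at 97.7 ± 3.45 CPM, TUBB4A at 38.2 ± 0.50 CPM and TUBB3 at 16.0 ± 0.70 CPM, together 6.78 ± 0.20% of beta tubulin with TUBB2A and TUBB1. TUBA1A brought the restricted alpha tubulins to 13.3 ± 0.25%. PTBP2, the neuronal splicing repressor, gave 8.57 CPM per kilobase and PTBP3, which is not a neuronal form, 20.7, together 13.3 ± 0.42% of the polypyrimidine tract proteins. Forms not known mainly from neurons had shares of the same order, with 10.5 ± 0.70% for the glutaminase GLS2 and 5.0 ± 1.26% for the testis form PDHA2 of pyruvate dehydrogenase. GLUD2 was 43.6 ± 0.77% of glutamate dehydrogenase, but GLUD1 and GLUD2 are near-identical in sequence and this division is uncertain.

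**Figure D3:**
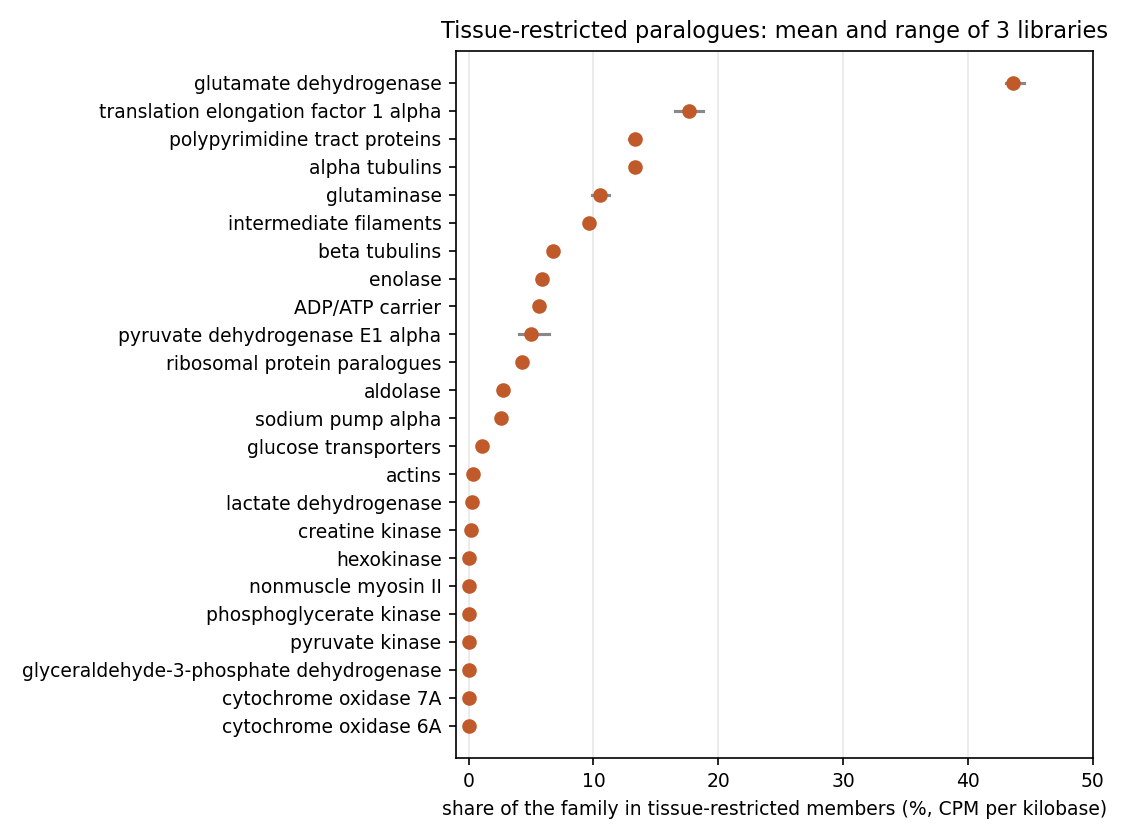
Share (%) of each paralogue family's summed CPM per kilobase that lies in its tissue-restricted members, as the mean (point) and range (line) of the 3 control libraries, for the 24 families with restricted members. Glutamate dehydrogenase (43.6%) and elongation factor 1 alpha (17.7%) are the highest, and 19 families lie under 10%.

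Most regulators of the early kidney were expressed, and 5 of 24 tubule genes were, beside 58.7% of all symbols. Of 19 genes of nephron progenitors and the early kidney, 17 were expressed, with a median of 10.5 CPM, below the 37.5 CPM of the median expressed symbol. CITED2 (99.3 ± 3.42 CPM), SALL1 (58.1 ± 1.49 CPM), HOXA11 (33.9 ± 1.29 CPM) and HOXD11 (29.4 ± 0.54 CPM) are transcription regulators of the kidney rudiment, and these 4 differed little between libraries. PAX2 had 11.2 ± 0.90 CPM, SIX2, which marks renewing progenitors, 10.5 ± 0.37 CPM, and WT1 9.68 ± 0.52 CPM. PAX8, a regulator found in most kidney epithelia, was at 0.249 ± 0.025 CPM, near the floor of the libraries. Among 24 tubule and collecting duct genes, 5 were expressed and the median was 0.137 CPM. The endocytic receptor LRP2 reached 30.2 ± 1.04 CPM and the water channel AQP3 6.27 ± 0.60 CPM. UMOD, AQP2, CDH16 and the organic anion transporters SLC22A6 and SLC22A8 had no read. Podocyte genes were expressed in 5 of 10 cases (50%), beside 58.7% of all symbols and 67.6% of protein-coding genes. The more widely used CD2AP (161 ± 6.66 CPM) and PODXL (56.1 ± 2.41 CPM) were high, while nephrin (NPHS1) gave 0.392 ± 0.190 CPM. The share expressed was thus 89.5% of the early kidney list, 20.8% of the tubule list and 50% of the podocyte list. The tubule and podocyte lists had members named above at both ends of the range.

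Neuronal cytoskeleton genes had the highest median of the lineage lists. Of 25 symbols 22 were expressed, with a median of 29.6 CPM. The microtubule regulator STMN1 had 677, 702 and 681 CPM and the ubiquitin hydrolase UCHL1 429, 394 and 432 CPM, and both are also made by many dividing cells. The light neurofilament NEFL stood at 166, 171 and 165 CPM, internexin (INA) at 37.4 ± 0.43 CPM, and MAP1B at 124 ± 3.99 CPM. In contrast, DCX, a marker of young neurons, gave 0.652 ± 0.030 CPM and STMN2 0.0542 CPM. Of 30 synapse genes 18 were expressed (60%), with a median of 1.83 CPM. That share was near the 58.7% of all symbols and below the 67.6% of protein-coding genes. VAMP2 of synaptic vesicles had 60.9 ± 2.45 CPM, SYT1 22.8 ± 0.69 CPM and GAD1, which makes GABA, 20.8 ± 1.21 CPM. The receptor subunit GRIA1 and the glutamate carrier SLC17A6 had no read. In the glial list 7 of 11 were expressed with a median of 1.51 CPM, led by MBP (14.9 ± 1.15 CPM) and OLIG2 (9.90 ± 0.51 CPM), and SOX10 had no read.

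Adrenal origin has been discussed for this line as background. Of 13 adrenal cortex genes 3 were expressed (23.1%), beside 58.7% of all symbols and 20.8% of the kidney tubule genes. The 3 were SCARB1 (49.0 ± 2.47 CPM), FDX1 (42.1 ± 3.05 CPM) and NR0B1 (1.37 ± 0.20 CPM). The steroid enzymes CYP11B1, CYP11B2 and CYP21A2 and the receptor MC2R had no read. Of 16 genes of chromaffin and sympathetic cells 6 were expressed (37.5%). They were led by the transcription factors GATA2 (76.3 ± 0.44 CPM) and GATA3 (44.5 ± 2.15 CPM), which other tissues including kidney also use. The catecholamine enzymes TH and DBH and the regulator PHOX2A had no read.

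Members of both the epithelial and the mesenchymal list were expressed, beside 58.7% of all symbols and 67.6% of protein-coding genes. Epithelial genes were expressed in 13 of 21 cases (61.9%) with a median of 3.20 CPM, and mesenchymal genes in 16 of 22 (72.7%) with a median of 4.65 CPM. Vimentin (VIM), the mesenchymal intermediate filament, had 827, 831 and 816 CPM. Keratins KRT8 and KRT18 of simple epithelia gave 135 ± 6.74 and 61.5 ± 2.14 CPM. Among cadherins, CDH2 had 162 ± 8.97 CPM and CDH1 12.1 ± 0.65 CPM. The desmosomal genes DSP (348 ± 12 CPM) and JUP (166 ± 2.29 CPM) led the epithelial list, and the matrix genes FN1 (111 ± 3.30 CPM) and SPARC (104 ± 2.70 CPM) followed VIM and CDH2. The fibroblast genes DCN, THY1 and POSTN were below 1 CPM, at 0.233, 0.0764 and 0.0739 CPM.

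Oncofetal genes stood out within a list that also holds pluripotency genes, of which 13 of 23 were expressed. The mRNA-binding protein IGF2BP1 had 562, 573 and 572 CPM, and LIN28B, which blocks maturation of let-7 microRNAs, 278, 285 and 279 CPM. HMGA1 (505 ± 6.45 CPM) and HMGA2 (119 ± 6.01 CPM), chromatin proteins of embryonic cells, were also high. The pluripotency factors POU5F1 and NANOG and the early embryonic gene DPPA4 had no read, while SOX2, which neural cells also use, had 31.2 ± 1.08 CPM. In other lineage lists few genes reached 1 CPM in all libraries. Beside 58.7% of all symbols, expressed members numbered 2 of 11 for endothelium, 2 of 22 for blood and immune cells, 3 of 17 for skeletal and cardiac muscle, 1 of 16 for liver and 1 of 22 for germ cell and cancer-testis genes. The exceptions with more than 10 CPM were FLT1 (25.5 ± 2.60 CPM) of endothelium, NCAM1 (44.1 ± 1.21 CPM), which is also a neural adhesion molecule, the cardiac factor NKX2-5 (41.7 ± 2.56 CPM) and the tumour antigen PRAME (71.5 ± 0.96 CPM).

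**Figure D4:**
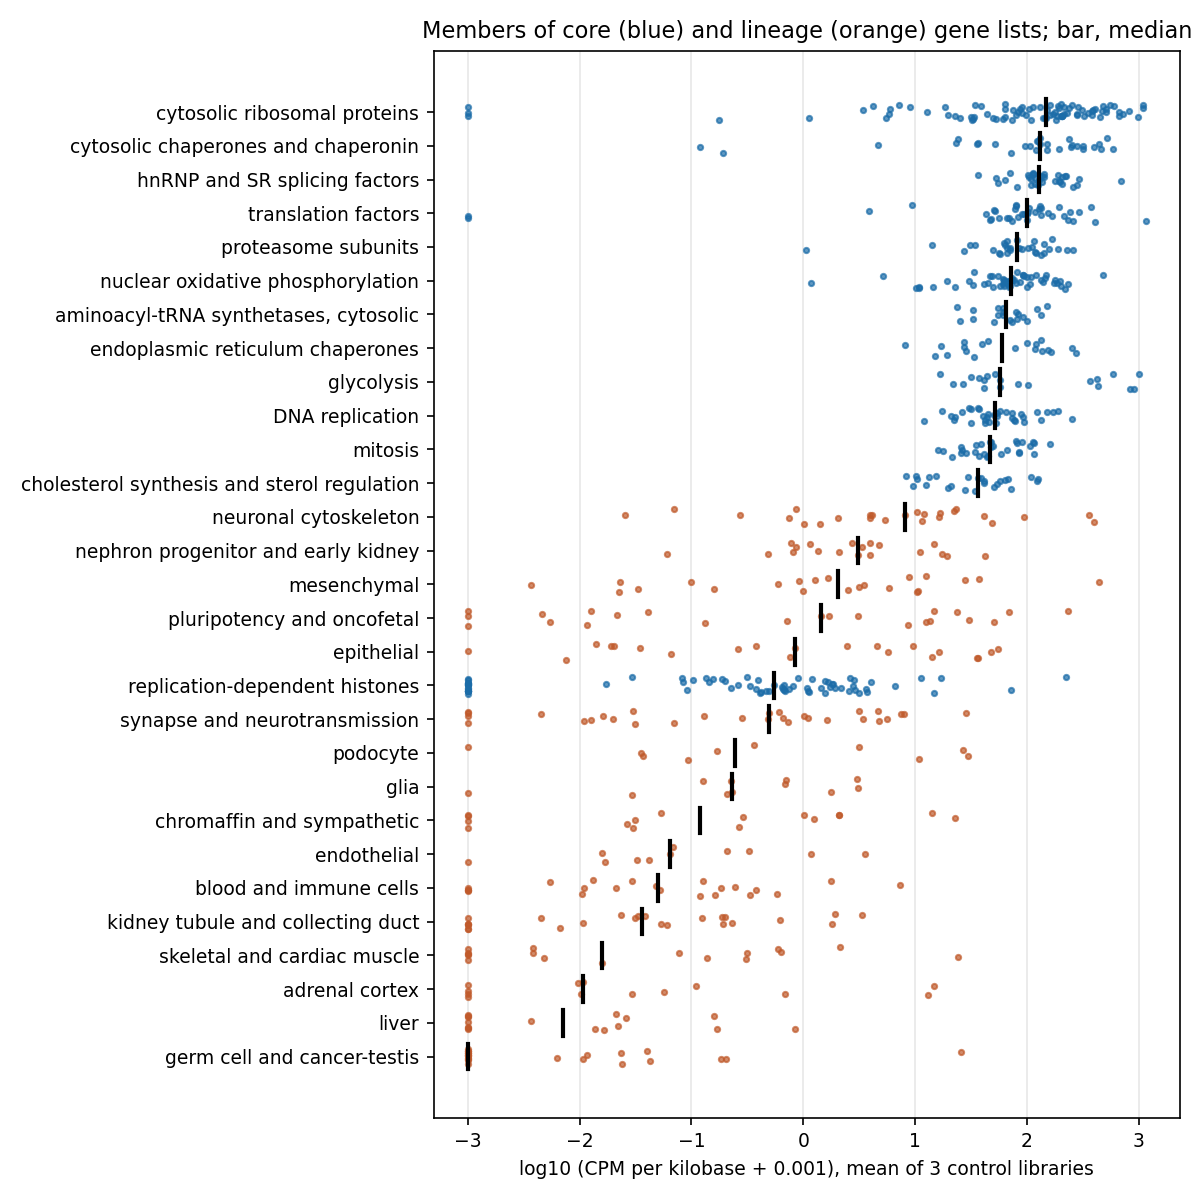
Level of each member of 13 core lists and 16 lineage lists, as log10 of mean CPM per kilobase plus 0.001 in the 3 control libraries, with 1 point per gene, points at −3 for genes with no read, vertical position within a row without meaning, and a bar for the list's median. The medians of the core lists, except that of the replication-dependent histones, lie to the right of all lineage medians, among which the neuronal cytoskeleton has the highest median.

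Of 31 genes of pattern recognition and antiviral sensing 16 were expressed (51.6%, beside 58.7% of all symbols), with a median of 1.18 CPM. The adaptor MAVS had 198 ± 2.20 CPM, the double-stranded RNA kinase EIF2AK2 88.8 ± 5.30 CPM, IRF3 69.0 ± 5.43 CPM and TBK1 61.5 ± 1.78 CPM. TLR5, the flagellin receptor, was at 1.64 ± 0.24 CPM and TLR3 at 1.18 ± 0.24 CPM. TLR2, AIM2, ZBP1 and the inflammasome genes PYCARD and CASP1 had no read, and TLR4 gave 0.0638 CPM. Ligands were rarer, with 5 of 24 interferon and cytokine genes expressed, and IFNB1, IL1B and CCL5 without a read. Interferon gamma (IFNG) gave 0.0147 CPM and IL6 0.0223 CPM. Antigen presentation was transcribed in 15 of 21 genes. B2M had 171 ± 3.96 CPM, HLA-C 163 ± 8.42 CPM and HLA-B 69.5 ± 2.21 CPM, although reads of related HLA genes are hard to separate.

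Receptors for growth factors were widely expressed, 30 of 35, with a median of 22.1 CPM. IGF1R (179.5 ± 2.44 CPM), IGF2R (177 ± 3.27 CPM) and the hepatocyte growth factor receptor MET (145 ± 6.13 CPM) were the highest. Close below the 40 most abundant symbols came IRS4, an adaptor of insulin and IGF signalling known for its high level in this line, with a mean of 968 ± 38.5 CPM. Receptors for neurotransmitters and hormones were expressed in 24 of 40 cases (60%) with a median of 2.20 CPM. All symbols together had a share of 58.7% and protein-coding genes 67.6%. The thrombin receptor F2R led with 75.9 ± 2.94 CPM, ahead of the ADP receptor P2RY1 at 36.6 ± 2.42 CPM, and OPRM1, GLP1R, HTR1A, HTR2C, CHRM2 and GHSR had no read. In the nuclear receptor list 36 of 45 were expressed. NR1D2, a clock repressor, had 178 ± 7.97 CPM and the glucocorticoid receptor NR3C1 119 ± 3.88 CPM, whereas PGR was at 0.136 CPM and the xenobiotic receptor NR1I2 had no read. All 31 immediate early genes, which respond to stimuli within minutes, were above 1 CPM, from JUN at 493 ± 1.2 CPM to EGR2 at 1.70 CPM.

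Gene families defined by their symbols differed widely in the share expressed, beside 58.7% of all symbols. HOX genes, which set position along the body axis, were expressed in 36 of 39 cases, with HOXB9 highest at 159 ± 5.12 CPM, HOXC12 and HOXD12 under 1 CPM, and HOXB1 without a read. Zinc finger genes named ZNF were expressed in 452 of 529 cases with a median of 18.2 CPM, and ZNF24 had 507 ± 10.4 CPM. Forkhead genes were expressed in 32 of 50 cases, led by FOXM1 and FOXC1 (367 ± 13.9 CPM). SOX genes, factors of progenitor cells, were expressed in 11 of 19 cases, led by SOX11 with 564, 614 and 574 CPM and SOX4 with 372 ± 7.26 CPM. Solute carriers were expressed in 226 of 367 cases, with the glutamine transporter SLC1A5 at 433 ± 12.9 CPM. The collagen genes expressed numbered 25 of 43. Those of basement membranes were high, among them COL4A5 (135 ± 3.90 CPM), COL4A2 (84.7 ± 1.96 CPM) and COL4A6 (64.2 ± 4.06 CPM), and so was the cartilage collagen COL2A1 (112 ± 5.32 CPM).

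At the other end, families of sensory, skin and immune function were almost without reads. Only 1 of 393 olfactory receptor symbols was expressed, OR7E14P, whose name is that of a pseudogene, at 3.05 ± 0.70 CPM, and 356 had no read. Defensin genes numbered 47, with none expressed, and DEFB126 was highest at 0.150 CPM. Keratin-associated protein genes were expressed in 1 of 88 cases and keratins in 4 of 56 cases, the latter being KRT8, KRT18, KRT10 and KRT222. Interleukins (7 of 42), chemokines (3 of 42), MAGE genes (5 of 34), potassium channels (33 of 86), cytochrome P450 genes (18 of 55) and FGF ligands (7 of 22) lay between. The highest cytochrome P450 gene was CYP51A1 (96.2 ± 2.33 CPM), which makes sterols and not drug metabolites. The highest MAGE genes, MAGED1 (175 ± 3.76 CPM) and MAGED2 (137 ± 5.66 CPM), are members of that family with wide use in tissues.

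By annotated class, protein-coding genes held 97.7% of the counts and were expressed in 12700 of 18790 cases (67.6%). Long noncoding RNA genes held 0.574% and were expressed in 170 of 614 cases. These shares leave out 1722 symbols without a matched annotation, which held 1.09% of counts. The highest of the unmatched symbols was C17orf76-AS1, an antisense noncoding symbol by its name, at 575 CPM. Among well-known noncoding RNAs, NEAT1, the scaffold of paraspeckles, had 735, 763 and 811 CPM, with control 3 highest. TUG1 had 401 ± 15.9 CPM, MALAT1 269.9 ± 14.2 CPM and SNHG1, a host of small nucleolar RNAs, 229 ± 3.05 CPM. The short RNAs RMRP, RPPH1 and TERC gave 0.342, 0.393 and 0.401 CPM, although cells need the first of these for ribosome production. MicroRNA genes were expressed in 11 of 1221 cases and small nucleolar RNA genes in 72 of 370, at 0.0111% and 0.0260% of counts, so these libraries give no measure of the mature small RNAs. The host gene MIR17HG had 100.4 ± 2.82 CPM. Pseudogenes held 0.604% of the counts with 220 of 628 expressed.

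Genes that share a joint symbol with a neighbour had unequal counts. A comparison added after the data were seen took 109 joint symbols that name a read-through transcript of neighbouring genes, such as SENP3-EIF4A1. The gene named first was the higher of the pair in 84 cases, the gene named second in 17, and they were equal in 8. In the equal pairs neither gene had a read. First-named genes had a median of 11.8 CPM and second-named genes 0.692 CPM, beside 16.0 CPM over all protein-coding genes. No read was counted for 26 of the second-named genes. EIF4A1, an initiation factor, had 0 reads, while SENP3-EIF4A1 had 1.49 CPM and SENP3 33.1 CPM. DDX39B and CTNND1, an mRNA export helicase and a catenin, had 84 and 337 reads over the 3 libraries, and UBE2V1 had 118. Low values of genes that share exons with a joint symbol, or that have a near-identical copy, are therefore uncertain as a sign of silence, wherever they are named above, and their cause was not tested.

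Differences among the 3 libraries were small. TMM factors, which correct for composition, ran from 0.9963 to 1.004. The common biological coefficient of variation from edgeR, which is the spread beyond counting noise, was 2.70% over 13726 symbols. For 10697 symbols with a mean of at least 10 CPM the median CV was 3.51%. By level, the median CV fell from 11.1% at 1 to 10 CPM to 4.02%, 2.50% and 1.55% in the higher bands, beside 12.2%, 3.75%, 1.83% and 0.647% from counting alone. The scaled chi-square, which is 1 under counting noise, averaged 1.2, 1.71, 3.32 and 17.6 in the same bands, so the deeper a symbol was counted the more its spread exceeded counting noise. The counts of the libraries therefore differed by more than sampling noise. Pairs of libraries differed by an SD of 0.0903, 0.102 and 0.101 on the log2 scale (controls 1 and 2, 1 and 3, 2 and 3). Counting alone would give 0.0725, 0.0778 and 0.0803 for these pairs. Of the 10697 symbols, 114, 211 and 198 were apart by more than 1.2-fold, and these numbers include counting noise. No symbol at that level was apart by more than 2-fold.

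The most variable symbols at 10 CPM or more had few reads, but their spread also exceeded counting noise. In the 15 of largest CV the scaled chi-square ran from 6.07 (L3MBTL1) to 14.5 (SNRPG). These symbols were picked as the extremes of many. PPFIA4, a synaptic scaffold gene, had 10.4, 10.9 and 15 CPM, a CV of 21.2%. RAI2 (20.1%), THBS3, TSPO (19.3%) and POTEF (19.2%) followed. SNRPG, a core splicing protein gene, had 22.0, 28.0 and 19.5 CPM, with control 2 high. Steadiest were SPIN1 with 154.80, 154.79 and 154.72 CPM, MRFAP1 with 554.1, 554.3 and 554.5 CPM, and LIPE with 11.15, 11.14 and 11.16 CPM, whose spread of 0.0743% of the mean lies far below counting noise at this depth. The smallest values out of 10697 are of this kind, and they single out no stable gene.

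Control 3, the shallowest library, stood apart most often. In the 100 symbols of largest CV it was farthest from the other libraries in 56, higher in 47 of them and lower in 9. Over all symbols at 10 CPM or more, control 3 was at least 10% above both others for 405 symbols and at least 10% below both for 294. The first set had a median GC content of 57.3% and the second of 41.5%, beside 47.8% for all. Across 10492 symbols with a known sequence, the deviation of control 3 from the mean had a Spearman correlation of 0.387 with GC content, control 2 of −0.394 and control 1 of −0.037. The deviations of the 3 libraries share their mean, and genes are not independent, so these values are descriptions. In size, the median deviation of control 3 ran from −0.037 (log2) below 40% GC to 0.025 at 60% and over, and that of control 2 from 0.033 to −0.025. With transcript length, the same correlation was −0.244 for control 1 and 0.285 for control 2. Among gene groups with at least 10 members counted, collagens deviated most in control 3, by 0.081 (log2, 14 genes). Glycolysis had 0.052 there and nephron progenitor genes −0.054, and the part of GC content in these was not tested.

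**Figure D5:**
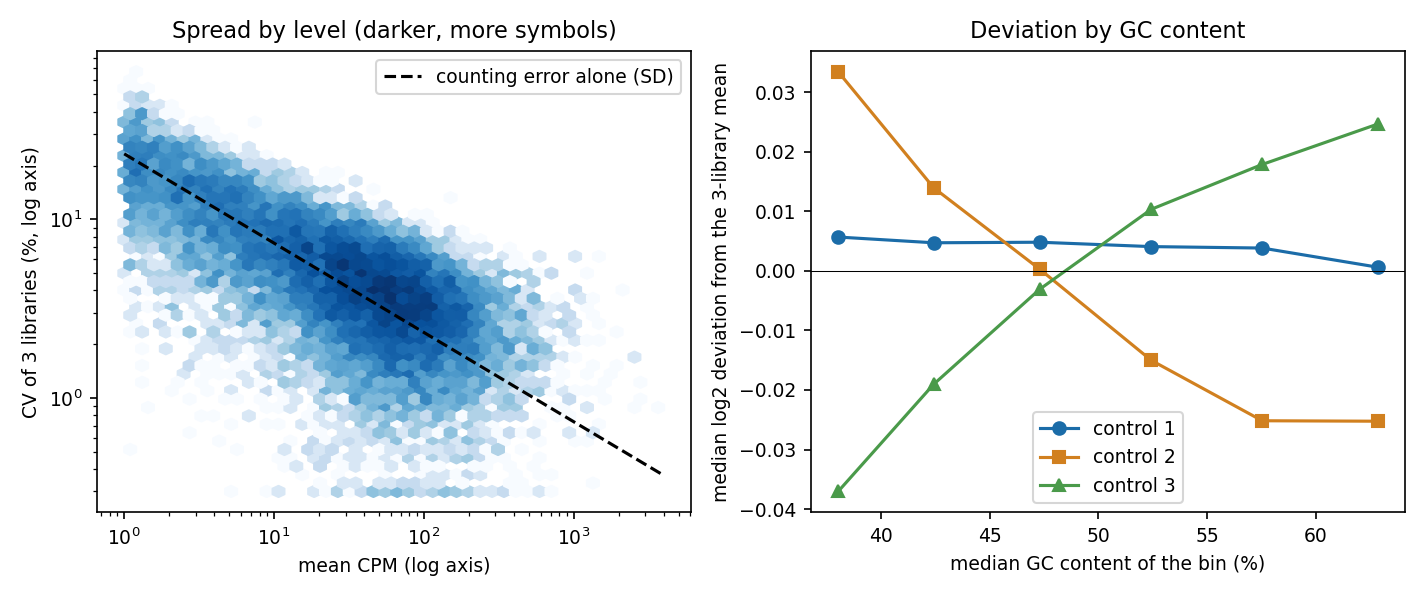
Left, CV (%, log axis) of the 3 control libraries against mean CPM (log axis) for expressed symbols, darker where more symbols lie, CVs under 0.3% drawn at 0.3%, and a dashed line for counting error alone; right, median log2 deviation of each library from the mean in bins of GC content (%). The cloud leaves the line at high levels, and controls 2 and 3 run in opposite directions with GC content while control 1 stays near 0.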

How the data were processed

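The authors deposited a single table of raw counts, which gives for each gene symbol its reads in each library, without normalization. The submitters' processing notes name the genome build hg19 and the tools TopHat2 2.0.8, HTSeq 0.5.3p9, SAMtools 0.1.18, Trimmomatic 0.22, CASAVA 1.8.2 and edgeR, with no role for each. Whether counting used strand, and how reads with more than 1 alignment or overlapping genes were handled, is not given in the sources used here. Only the 3 control columns were used, each matched to its library by title.

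CPM was computed against library totals of 22.7 M, 19.4 M and 15 M. Symbols were matched to GENCODE 29 by name (20194) or through RefSeq synonyms (1452), and 1722, with 1.09% of counts, were unmatched. That annotation gave class, GC content and length only. Matching by synonyms was chosen after the data were seen. With 1 group no test was run and no adjusted p exists. TMM factors and the dispersion came from edgeR 4.0.16 in R 4.3.3 with an intercept-only design, checked on simulated counts. Tables were made with Python 3.11.15 and pandas 2.3.3.

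The genes and lists were chosen with earlier results of these data known. Named are the 40 most abundant symbols, the 20 highest per kilobase, up to 5 highest and 4 lowest members and members with no read of each list, all paralogue family members, the 15 most and 10 least variable symbols, and MOV10. Some genes that this rule picks are not reported here. Genes named for recognition beyond that rule, the sequence motifs and windows, the GC and length comparisons and the read-through pairs were picked after values had been seen. Alternatives were other thresholds, TMM scaling, protein-coding symbols only, both length measures, other filters and leaving out each library.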

Additional observations from a re-analysis of the deposited data

How the results depend on the processing

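The number of expressed symbols was 14462 at a threshold of 0.5 CPM, 11699 at 5 CPM and 13702 with TMM scaling, beside 13726. Symbols with no read numbered 4887 to 5050 when a library was left out. With protein-coding symbols only, the 10 most abundant symbols took 2.47% and the 100 most abundant 11.1% of counts. The common biological coefficient of variation ran from 2.50% to 2.82% when a library was left out, and it was lowest, at 2.50%, without control 3. It was 2.67% with library totals, 2.71% without a filter and 2.65% with a filter at 10 CPM. Relative to the median expressed symbol, the median of the abundant noncoding RNAs was −0.13 (log2) in CPM, 0.46 per kilobase of the longest transcript and 0.14 per kilobase of all exons. That of the immediate early genes was −0.42 in CPM, 0.11 per kilobase of the longest transcript and −0.15 per kilobase of all exons. These changes follow from the division by length. Over all list medians and settings, 114 values moved by less than the spread between libraries, 73 moved by more on the same side, and the 3 given here changed side. No paired analysis was possible because the results come from no test and only 1 group was used.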

Other observations

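Some partner genes had unequal levels in the control libraries, and these pairs were picked after their values had been seen. COL1A1, a chain of the main collagen of bone and skin, had 55.8, 58.0 and 62.8 CPM, while COL1A2, the chain it normally pairs with, had a single read in all 3 libraries (0.0147 CPM). TMEM173, the adaptor STING, had 41.4 ± 1.34 CPM (SD, n = 3), and MB21D1, the DNA sensor cGAS that acts before it, had 0.309, 0.310 and 0.134 CPM. LIN28B stood at 281 ± 4.01 CPM and its relative LIN28A at 0.160 ± 0.153 CPM. HLA-DPA1, a class II antigen presentation gene, had 24.0 ± 2.12 CPM, beside 0.0147 CPM for CIITA, the usual activator of that class.

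Some pseudogenes stood near or above their parent genes, and these sequences are alike enough that their values are uncertain. ATP5EP2 had 104.6, 98.4 and 103.3 CPM, against 5.33, 4.70 and 2.74 CPM for its parent ATP5E. RPSAP58 had 430.3 ± 6.26 CPM, against 175.7 ± 8.92 CPM for the ribosomal protein gene RPSA. HSP90AB3P had 783 ± 27.7 CPM beside 1392 ± 35.1 CPM for HSP90AB1. In each of these pairs all 3 libraries gave the same order.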
